A study of Oryctolagus cuniculus with 17 samples.

Results

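Ribosomal proteins were followed in the lung of preterm rabbit pups breathing hyperoxic or normal air. The members were the rows of the deposited count table whose human gene symbol begins with RPL, RPS, MRPL or MRPS, goes on with a number and ends there or with only the letters A, X or L or further digits, together with RPLP0, RPLP1, RPLP2 and RPSA where present. For a symbol with several rows, the row with the highest total count was kept. This left 121 genes of the 13827 rows in the table, 57 of them cytosolic and 64, with names starting with MRP, mitochondrial. All 121 passed the filter on low counts, which left 13142 rows to test.

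The pups were New Zealand White rabbits delivered on day 28 of gestation, before term, and all groups therefore share preterm birth. They were kept at 95% oxygen (HT) or at 21% oxygen (NT) until postnatal day 3, 5 or 7, giving the groups HT3, NT3, HT5, NT5, HT7 and NT7. RNA came from homogenates of the right lung, with 3 samples per group except 2 in HT5, and 17 in all. No group of pups born at term was compared here, and a homogenate mixes all cell types of the lung.

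The cytosolic ribosome of animal cells consists of a small (40S) and a large (60S) subunit, each made of ribosomal RNA and of proteins named RPS and RPL. It translates all mRNAs encoded in the nucleus, and most of its protein mRNAs carry a terminal oligopyrimidine tract at their 5′ end, through which their translation is tied to growth signals. Mitochondria have a ribosome of their own, whose proteins (MRPS and MRPL) are encoded in the nucleus, made in the cytosol and imported. It translates only the few mRNAs of the mitochondrial genome, which encode core subunits of the respiratory chain and the ATP synthase.

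Totals per sample, with each locus counted once, lay between 13123731 and 18111086 counts. The 7 markers of alveolar type 2 cells tested, surfactant genes among them, summed to between 12606 and 33062 CPM in every sample, where CPM are counts scaled to a common library size. Among the cytosolic members, 22 had a mean over all samples of 0.700 to 6.04 CPM, and the other 35 one of 26.2 to 2443 CPM, with none between. Of the 22 low rows, 21 had no rabbit symbol and 16 spanned under 1000 bp. Cytosolic ribosomal protein genes have many near-identical processed copies in mammalian genomes, so the counts of low rows may belong to such copies and their values are uncertain. RPS19, RPSA, RPL34, RPL39, RPS27L, RPL22L1 and RPL3L are among them. Nothing here compares levels between genes, since no transcript lengths were used.

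Many mRNAs of mitochondrial ribosomal proteins rose with hyperoxia, and few of those of the cytosolic ribosome did. On day 7, 33 of the 64 mitochondrial members were higher in HT7 than in NT7 at an adjusted p-value under 0.01 (edgeR quasi-likelihood test) and 0 were lower, also by DESeq2, with 1 lower at an unadjusted p-value under 0.05. Across all genes tested, 16.7% were higher and 16.9% lower by the same rule. Of the 57 cytosolic members, 3 were higher and 2 were lower. The median log2 fold change (log2FC) was 0.55 over the mitochondrial members, a fold change of 1.47, against -0.10 over the cytosolic members and -0.01 over all genes. The cytosolic median was -0.22, -0.02 and -0.0042 without HT7 replicates 1, 2 and 3 in turn and -0.04 without NT7 replicate 2. Among the 35 cytosolic rows that averaged at least 20 CPM, 3 were higher and 2 lower (8.57% and 5.71%), with a median of -0.04. None of the 22 cytosolic rows of low count was called. In bulk tissue, a change in the share of cells that express a gene and a change in its mRNA per cell cannot be told apart.

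The plot of class medians by sample shows how this built up over the days. For each gene, log2 CPM was taken relative to its mean in the 9 normoxia samples, and the median over a class was formed in each sample. The mitochondrial median was 0.78, 0.41 and 0.59 in the 3 samples of HT7, against 0.07, -0.03 and 0.05 in NT7. All HT7 samples were above all normoxia samples of any day. In HT5 it was 0.14 and 0.46 and in NT5 0.03, -0.02 and 0.02, again without overlap. On day 3 it was 0.07, -0.11 and 0.00 in HT3 and -0.02, -0.11 and -0.02 in NT3, and the groups overlapped.

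The cytosolic median went another way. It was -0.30 and -0.70 in HT5, below every other sample of the study, against 0.04, -0.05 and -0.04 in NT5. In HT7 it was 0.19, -0.04 and -0.20, a spread that reached to both sides of the NT7 values of 0.00, 0.07 and 0.06. In HT3 it was 0.24, 0.03 and 0.01, and in NT3 0.01, 0.02 and -0.02. The 2 HT5 samples lay further apart than the highest and the lowest of the 9 normoxia samples.

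**Figure D1:**
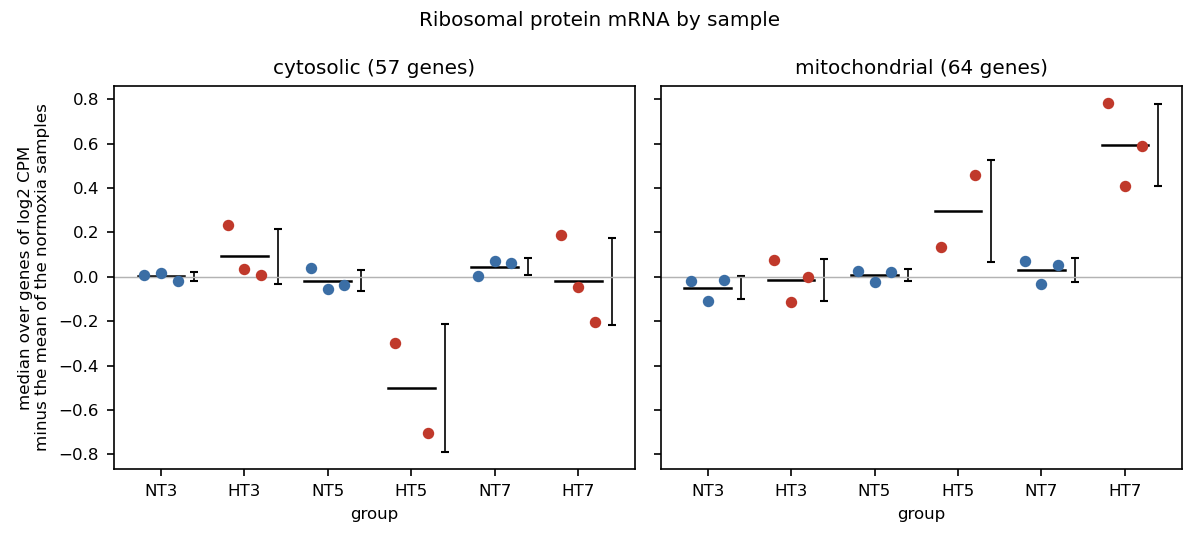
Median over the 57 cytosolic (left) or 64 mitochondrial (right) members of log2 CPM relative to the mean of the 9 normoxia samples (vertical axis), by group (horizontal axis). Points are samples (blue normoxia, red hyperoxia), horizontal lines group means and error bars 1 SD. The mitochondrial medians of HT7 lie between 0.41 and 0.78, and the cytosolic medians of HT5 at -0.30 and -0.70.

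As a share of all counts, mitochondrial members took 0.387%, 0.295% and 0.344% in the HT7 samples and 0.235%, 0.218% and 0.228% in the NT7 samples. Cytosolic members took 2.14% and 1.71% in HT5 against 2.42%, 2.34% and 2.42% in NT5. In HT7 they took 2.88%, 2.57% and 2.40%, and in NT7 2.37%, 2.52% and 2.52%. The mitochondrial share was above every normoxia sample in all samples of HT5 and HT7, and the cytosolic share was below every normoxia sample in both samples of HT5.

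On day 3 no member of either class was called in either direction by edgeR or by DESeq2, where 0.0989% of all genes were higher and 0.107% lower in HT3. At an unadjusted p-value under 0.05, 1 cytosolic and 4 mitochondrial members differed between HT3 and NT3, where 2013 of the 13142 genes tested did. The median log2FC was 0.10 over the cytosolic and 0.08 over the mitochondrial members. All HT3 samples were above all NT3 samples for 12 cytosolic and 8 mitochondrial members, and below them for 1 and 5, where 12.8% of all genes were separated upwards and 13.9% downwards.

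On day 5 the classes lay on either side of 0. Among the mitochondrial members 6 (9.38%) were higher in HT5 and 0 lower by edgeR (0 by DESeq2 and 4 at an unadjusted p-value under 0.05). Among the cytosolic members 1 was higher and 6 (10.5%) were lower. Across all genes 8.56% were higher and 7.62% lower. The share of mitochondrial rises was thus near the background, and that of cytosolic falls not far above it. The median log2FC was 0.31 and -0.43. Among the 35 cytosolic rows that averaged at least 20 CPM, 1 was higher and 6 were lower (17.1%), with a median of -0.45. HT5 lay above NT5 in all samples for 31 mitochondrial members and below for 7, while it lay below for 37 of the 57 cytosolic members and above for 2. Across all genes, 26.5% were separated upwards and 29.2% downwards on that day. These counts rest on 2 hyperoxia samples. A model of only the samples of day 5 gave 0 calls in either class, and the replicate block left 2 mitochondrial rises, 1 cytosolic rise and 1 cytosolic fall. Without HT5 replicate 1 there were 12 mitochondrial rises and 18 cytosolic falls. Without HT5 replicate 2, no mitochondrial member was called higher, 1, MRPL36, was called lower, and no cytosolic member was called. Without any 1 of the NT5 samples there were 3 mitochondrial rises, and without NT5 replicate 2 there were 3 cytosolic falls. The class medians without HT5 replicate 2 were 0.16 and -0.27.

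By day 7, HT7 lay above NT7 in all samples for 43 mitochondrial members and below for 3. The corresponding counts were 10 and 13 for the cytosolic members, with 27.3% of all genes separated upwards and 27.2% downwards. Rises of mitochondrial members were shared by both subunits, as named. Of 22 MRPS members 11 rose, with a median log2FC of 0.47, and of 42 MRPL members 22 rose, with a median of 0.56. The cytosolic medians were -0.10 over 17 RPS and -0.11 over 40 RPL members.

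**Figure D2:**
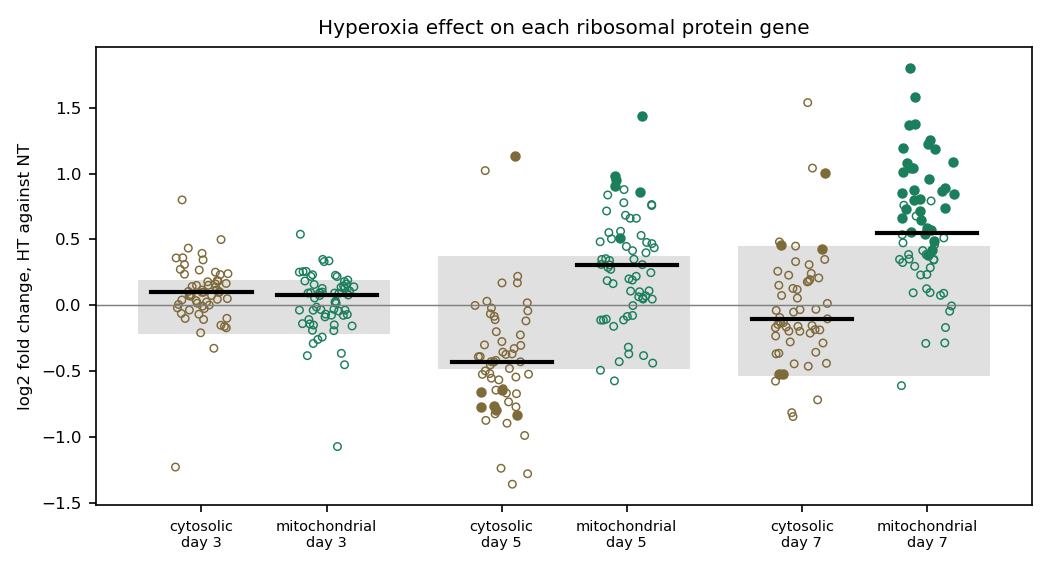
log2 fold change of HT against NT (vertical axis) for each member, by class and day (horizontal axis). Filled points have an adjusted p-value under 0.01, black lines are class medians and grey bands the middle 50% of all genes tested (MRPS17, near 0 counts, is not drawn on days 3 and 7). The mitochondrial median moves from 0.08 to 0.31 and 0.55, and the cytosolic one from 0.10 to -0.43 and -0.10.

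MRPS14, a protein of the small mitochondrial subunit (chromosome 13, 2247363 to 2274533, build OryCun2.0, as for all positions here), had the largest rise of day 7. It measured 67.7, 24.1 and 50.1 CPM in HT7 and 14.4, 13.8 and 12.5 CPM in NT7, with a log2FC of 1.80 ± 0.31 (SE, adjusted p = 0.00026). All HT7 samples were above all NT7 samples, although replicate 2 stood closer to them than the other HT7 samples. On day 5 it was 17.5 and 32.8 CPM in HT5 and 16.3, 14.5 and 13.7 CPM in NT5 (log2FC 0.76, adjusted p = 0.089).

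MRPL51, a protein of the large mitochondrial subunit (chromosome 8, 32548755 to 32549915), was already higher on day 5. It measured 34.4 and 54.9 CPM in HT5 against 17.1, 14.0 and 18.3 CPM in NT5 (log2FC 1.44 ± 0.28, adjusted p = 0.0018). On day 7 the values were 74.5, 34.0 and 57.7 CPM in HT7 and 21.1, 14.4 and 20.0 CPM in NT7 (log2FC 1.58 ± 0.26, adjusted p = 0.00019). The groups were separate on both days and overlapped on day 3, when HT3 held 19.4, 14.7 and 21.1 CPM and NT3 15.9, 15.0 and 15.5 CPM.

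MRPL11, which belongs to the base of the stalk where translation factors bind (chromosome 1, 194078352 to 194080481), measured 84.3, 51.7 and 64.2 CPM in HT7. In NT7 it held 26.0, 24.8 and 26.1 CPM, so that the lowest hyperoxia sample stood well clear of normoxia (log2FC 1.38 ± 0.19, adjusted p = 6.1e-05). In HT5 it was 33.3 and 58.1 CPM against 25.4, 24.4 and 23.4 CPM in NT5 (log2FC 0.91, adjusted p = 0.0054). On day 3 both groups held between 21.9 and 28.6 CPM.

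The largest rises of day 5 included MRPL18, which binds 5S rRNA and takes part in its import into mitochondria, and MRPL45, which tethers the ribosome to the inner membrane. MRPL18 measured 36.4 and 50.9 CPM in HT5 and 21.3, 23.7 and 22.9 CPM in NT5 (log2FC 0.95 ± 0.19, adjusted p = 0.0023). MRPL45 measured 26.3 and 44.5 CPM in HT5 and 17.1, 17.6 and 19.2 CPM in NT5 (log2FC 0.98 ± 0.24, adjusted p = 0.0068). Both stayed separate from normoxia on day 7, with log2FC of 1.09 and 1.19. All 6 mitochondrial members called on day 5 were also called on day 7.

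Among the members picked for their roles, MRPS30, placed in the large subunit by structural work despite its name, measured 49.8, 35.0 and 45.7 CPM in HT7 and 15.4, 16.9 and 18.4 CPM in NT7 (log2FC 1.37 ± 0.19, adjusted p = 4.7e-05). MRPS22, in which mutations cause mitochondrial disease, had a log2FC of 0.96, and MRPS27, a pentatricopeptide repeat protein of the small subunit, 1.22. MRPL44 and MRPL3, both likewise disease genes, had log2FC of 0.85 and 0.65. All 5 passed the test on day 7, whereas MRPS16, a core protein of the small subunit, did not (log2FC 0.13). The MRPS16 row shares its locus and counts with CFAP70 and DNAJC9, so these genes could not be separated.

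Not all mitochondrial members rose. Of the 31 that did not pass the test on day 7, 24 had a positive and 7 a negative log2FC. MRPL52, of the large subunit, measured 31.5, 24.7 and 24.4 CPM in HT7 and 32.5, 30.1 and 35.6 CPM in NT7 (log2FC -0.29, adjusted p = 0.079), and the groups overlapped. MRPS21, of the small subunit, measured 13.6, 15.4 and 14.1 CPM in HT7 and 16.3, 17.3 and 19.2 CPM in NT7 (log2FC -0.29, adjusted p = 0.31), with every hyperoxia sample below normoxia. MRPL52 and MRPS21 were chosen after their values were seen. MRPS17 had at most 3 counts in 12 of the 17 samples, among them all of HT7 and NT7, and no fold change is given for that day. Without it the mitochondrial median of day 7 was 0.56.

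**Figure D3:**
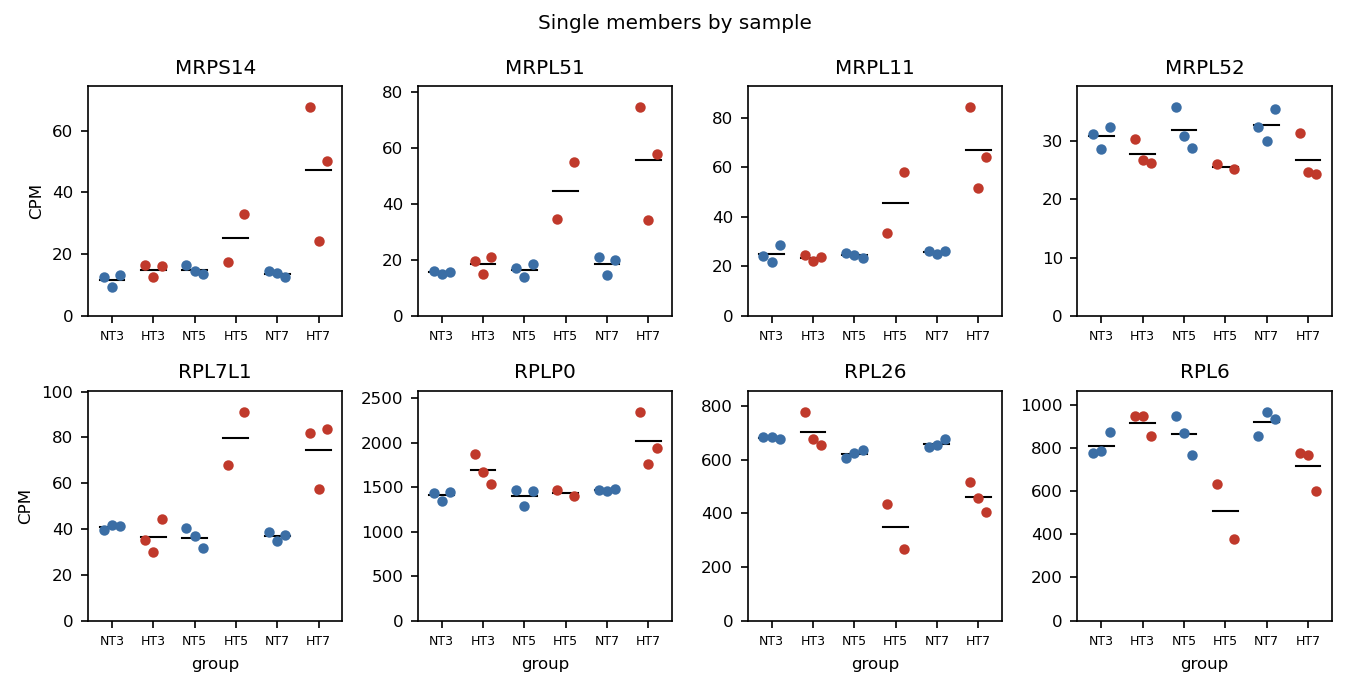
CPM (vertical axes, from 0) of 8 members in every sample, by group (horizontal axes), with blue for normoxia, red for hyperoxia and a line at each group mean. MRPS14, MRPL51 and MRPL11 climb to between 24.1 and 84.3 CPM in HT7, MRPL52 does not, RPL7L1 and RPLP0 lie above NT7 in HT7, and RPL26 and RPL6 lie below the normoxia samples of the same day in HT5 and HT7.

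The few cytosolic members that rose on day 7 had distinct roles. RPL7L1 (chromosome 12, 32409522 to 32416474) is a paralog of RPL7 that acts in the assembly of the 60S subunit. It measured 68.1 and 91.2 CPM in HT5 and 40.4, 37.0 and 31.5 CPM in NT5, then 81.7, 57.4 and 83.7 CPM in HT7 and 38.8, 34.9 and 37.6 CPM in NT7. The groups were separate on both days, with log2FC of 1.14 ± 0.18 (adjusted p = 0.00061) and 1.0 ± 0.17 (adjusted p = 0.00024). RPLP0, the core of the acidic stalk of the 60S subunit (chromosome 21, 12356786 to 12360135), measured 2348, 1765 and 1943 CPM in HT7 and 1464, 1454 and 1479 CPM in NT7 (log2FC 0.46 ± 0.11, adjusted p = 0.0034). It was not called on day 5, at 1462 and 1401 CPM in HT5 and 1465, 1284 and 1455 CPM in NT5. RPL4 (chromosome 17, 5896994 to 5901239), which lines the exit tunnel, measured 3413, 2610 and 2883 CPM in HT7 and 2124, 2299 and 2211 CPM in NT7 (log2FC 0.42, adjusted p = 0.0083). Its row shares a locus with SNAPC5 and small nucleolar RNA genes, so the counts are not RPL4's alone. RPL7L1 was called on day 7 without any 1 of the samples. Without HT7 replicate 1, or without any 1 of the NT7 samples, it was the 1 cytosolic rise left, and RPLP0 and RPL4 were not called. RPL4 was also not called without HT7 replicate 3.

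RPL26 was lower on both days. This 60S protein (chromosome 19, 10915736 to 10920728) measured 435 and 265 CPM in HT5 and 604, 623 and 637 CPM in NT5 (log2FC -0.83 ± 0.16, adjusted p = 0.0021). On day 7 it held 517, 456 and 404 CPM in HT7 and 646, 655 and 677 CPM in NT7 (log2FC -0.52 ± 0.14, adjusted p = 0.0077). The conditions did not overlap on day 5 or 7, while they overlapped on day 3. On day 7, RPL26 was not called without HT7 replicate 2 or 3 or any 1 of the NT7 samples.

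RPL6 is a 60S protein that measured 633 and 378 CPM in HT5 and 949, 871 and 768 CPM in NT5 (log2FC -0.77, adjusted p = 0.0057). On day 7 its log2FC was -0.36 (adjusted p = 0.072). RPL35A and RPL30 were also among the cytosolic falls of day 5, with log2FC of -0.66 and -0.64, and neither passed the test on day 7.

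Several cytosolic members with well-known roles were not called on day 7. RPL5, which with 5S rRNA and RPL11 restrains MDM2, had a log2FC of 0.05. RPS6, the substrate of S6 kinase, had 0.20, RPL13A, a 60S protein linked to control of inflammatory mRNAs, 0.23, RPS4X -0.14 and RPL3, near the peptidyl transferase centre, 0.12. RPLP1, the partner of RPLP2 in the stalk, had -0.03, and its difference from RPLP0 was not tested. RPL10, a late-joining 60S protein, had -0.44 and an adjusted p-value of 0.031. RPS19 had a log2FC of 0.35, RPSA -0.03, RPL34 -0.81 and RPL39 0.33, all on rows of low count.

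Paralogs of the same protein were set side by side. RPL26L1 measured 50.9, 33.0 and 41.7 CPM in HT7 and 28.2, 31.4 and 32.5 CPM in NT7 (log2FC 0.45 ± 0.17, adjusted p = 0.038), with separate groups but no call, where RPL26 was lower. Whether the responses of RPL26 and RPL26L1 differ was not tested. RPL36A and RPL36AL had log2FC of 0.48 and 0.01, and the RPL36A row shares its locus with DNAAF2. RPS27L, a paralog of RPS27, held 2.36, 1.03 and 1.38 CPM in HT7 and 0.889, 0.675 and 0.748 CPM in NT7 (log2FC 1.04 ± 0.38, adjusted p = 0.035), with HT above NT in all samples on each of the 3 days.

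RPL22L1 differed from sample to sample rather than by group. Its row had 3 or fewer counts in 3 samples, HT3 replicates 2 and 3 and NT7 replicate 2, and at least 53 in each of the other samples. Its paralog RPL22 had a log2FC of -0.21 on day 7 and was not called. RPL3L, the form of RPL3 known from striated muscle, measured 4.87 CPM in HT3 replicate 2, its highest value, where the 5 skeletal muscle markers tested summed to 324 CPM. The 2 did not go together in all samples. HT5 replicate 1 had 1.65 CPM of RPL3L with 294 CPM of these markers, and NT3 replicate 1 had 2.97 CPM, the value next to the highest, with 8.23 CPM of the markers. The part of muscle in that value was not tested.

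In HT5 and HT7, many members shared the same order of samples. HT7 replicate 1 had the highest value of the 3 HT7 samples for 32 of the 33 mitochondrial members that rose, and replicate 2 the lowest for 30. The order was not counted over all genes, so it is not shown to be particular to these members. In HT7 replicates 1, 2 and 3, neutrophil markers summed to 2817, 942 and 1257 CPM, and macrophage markers to 2299, 1662 and 1857 CPM. Endothelial markers summed to 1193, 818 and 1173 CPM. Alveolar type 2 markers, at 13484, 29484 and 16303 CPM, had the reverse order. So did markers of dividing cells (301, 540 and 351 CPM), ciliated cells and fibroblasts. Alveolar type 1, lymphocyte, erythroid and heart muscle markers followed neither order. The part of these cell types in the order of the members was not tested. In HT5, replicate 2 was above replicate 1 for 48 of the 64 mitochondrial members, and below it for 52 of the 57 cytosolic members. So the HT5 sample with more mitochondrial ribosomal protein mRNA had less of the cytosolic. In HT7 replicate 1, by contrast, both classes stood high, with the highest value of the group for 53 mitochondrial and 47 cytosolic members. In NT7 no replicate held the highest value of more than 27 mitochondrial or 24 cytosolic members.

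Responses on day 5 and day 7, which share no samples, were alike across members. Pearson's r of the log2FC was 0.86 over 63 mitochondrial members (without MRPS17) and 0.72 over 57 cytosolic members, as a description across genes, which share libraries and are not independent. It was not taken over all genes, so the likeness is not shown to be particular to the members. Most members stood higher on day 7 than on day 5 relative to normoxia. The day 7 effect minus the day 5 effect had a median of 0.29 over mitochondrial and 0.36 over cytosolic members, and was positive for 57 of 64 and 53 of 57. No member passed the test of that difference by edgeR or DESeq2, and 0% of all genes were higher or lower. At an unadjusted p-value under 0.05, 9 mitochondrial and 13 cytosolic members differed, where 1125 of the 13142 genes tested did. This comparison was added after the data were seen. Its cytosolic median was 0.63 without HT5 replicate 1 and 0.17 without HT5 replicate 2. Its mitochondrial median was 0.17 without HT5 replicate 1, 0.44 without HT5 replicate 2 and 0.16 without HT7 replicate 1.

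**Figure D4:**
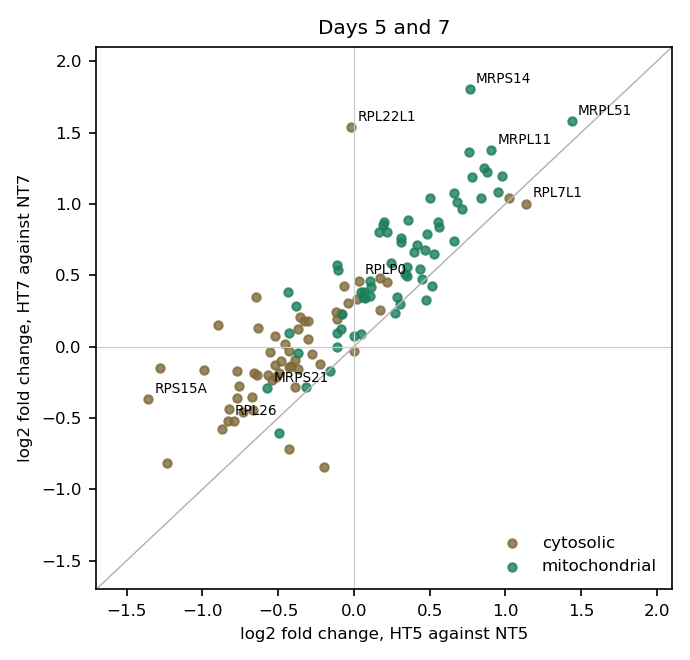
log2 fold change of each member on day 5 (horizontal axis) and on day 7 (vertical axis), cytosolic members in brown and mitochondrial members in green, with the line of equal values. Most points lie above that line, with mitochondrial members towards the upper right and MRPS17 left out.

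The response itself differed between day 7 and day 3 for some members. The hyperoxia effect of day 7 minus that of day 3 was higher by edgeR for 6 mitochondrial members and 1 cytosolic member and lower for 0 (1 mitochondrial and 5 cytosolic at an unadjusted p-value under 0.05), where 2.59% of all genes were higher and 4.68% lower. These were MRPL11 (log2FC difference 1.47), MRPS30 (1.23), MRPL13 (1.09), MRPL20 (0.74), MRPS23 (0.70) and MRPL24 (0.56), and RPL7L1 (1.16). MRPL20 shares its locus with ANKRD65 and MRPL24 with HDGF. The median of this difference was 0.56 over mitochondrial members and -0.19 over cytosolic members. The latter was -0.31 without HT7 replicate 1, -0.08 without HT7 replicate 3, and -0.12 without HT3 replicate 3 or NT7 replicate 2. DESeq2 called 13 mitochondrial members and 1 cytosolic member higher and 0 lower, and with the replicate number as a block edgeR called 2 of each class higher. The 6 mitochondrial calls became 0 without NT3 replicate 3 or NT7 replicate 2, 14 without HT7 replicate 2 and 2 to 4 without any 1 of the other samples. The call of RPL7L1 was lost without HT3 replicate 2, without HT7 replicate 1 or 3, without any 1 of the NT3 samples and without NT7 replicate 2 or 3.

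Within normoxia, no member and no gene was called between NT7 and NT3 by edgeR (0% higher and 0% lower), and no member by DESeq2. At an unadjusted p-value under 0.05, 4 mitochondrial and 0 cytosolic members differed, where 824 of the 13142 genes tested did. The medians were 0.09 and 0.06. Within hyperoxia, 37 mitochondrial members were higher in HT7 than in HT3 and 1 was lower, and 3 cytosolic members were higher and 2 lower, where 14.3% of all genes were higher and 15.1% lower. The medians were 0.62 and -0.14. This comparison shares the HT7 samples with that of day 7. The 1 mitochondrial fall was MRPS17, with 12, 9 and 13 counts in HT3 and 1, 1 and 0 in HT7. The 37 rises became 20 without HT3 replicate 2 and 21 without HT7 replicate 1, and the call of MRPS17 was lost without HT3 replicate 1 or 3 or HT7 replicate 1 or 3. The cytosolic rises were RPL7L1, RPS12 and RPL26L1, of which 1 was left without HT7 replicate 1, and RPL26 was among the falls, of which 1 was left without HT7 replicate 3.

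The study counted as DEGs only genes with a log2FC beyond 2 in either direction at the same p-value threshold. With edgeR p-values, no member passed that rule on day 3, 5 or 7, where 0.0533%, 1.58% and 4.59% of all genes did. The study applied its rule to DESeq2 p-values, so these shares are not those of the study. The called mitochondrial rises of day 7 ranged from 1.31-fold to 3.49-fold, and 13 of the 33 had a log2FC of at least 1.

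Other genes of the translation machinery were counted in the same way. Among 49 genes tested that act in building cytosolic ribosomes, 34 were higher on day 5 and 0 lower, and 43 were higher on day 7 and 1 lower. For this and the lists that follow, the shares over all genes were 8.56% higher and 7.62% lower on day 5, and 16.7% and 16.9% on day 7. Their median log2FC was 0.96 and 1.15. The examples are POLR1A, the largest subunit of RNA polymerase I (log2FC 1.24 on day 7), RRP12 (2.06) and PNO1 (2.22), which act in the maturation of the 40S subunit, and RRS1 (1.82), which brings 5S rRNA to the 60S precursor. PES1, of the PeBoW complex, was the 1 fall (-1.47). These 5 were chosen after their values were seen, as were the genes named next.

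Of 15 translation factors and related genes whose mRNAs carry the same 5′ tract as those of the cytosolic ribosomal proteins, 0 were higher and 1 lower on day 5, and 1 was higher and 1 lower on day 7. EEF1A1, the main elongation factor, fell on both days (log2FC -1.35 and -1.02), and EIF2S3, a subunit of the initiation factor that carries the initiator tRNA, rose on day 7 (1.14). The median over these genes was -0.34 on day 5 and -0.05 on day 7. FAU and RACK1, cytosolic ribosomal proteins whose symbols lie outside the name rule, had log2FC of -0.22 and 0.16 on day 7, and neither was called.

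Of 37 genes tested for mitochondrial translation and assembly of the mitochondrial ribosome, 10 were higher and 1 lower on day 5, and 14 higher and 1 lower on day 7, with medians of 0.42 and 0.57. MTO1, which modifies mitochondrial tRNAs (1.64 on day 7), FASTKD2, an RNA-binding factor of ribosome assembly (1.50), METTL17 (1.47) and GFM1, elongation factor G1 (0.90), rose. TSFM, the exchange factor of the elongation factor Tu, fell on both days (-0.91 and -1.26). Of 7 further mitochondrial ribosomal proteins outside the name rule, 4 rose on day 7 and 0 fell, among them GADD45GIP1 (1.30), MRPS18B (1.02) and DAP3 (0.61).

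**Figure D5:**
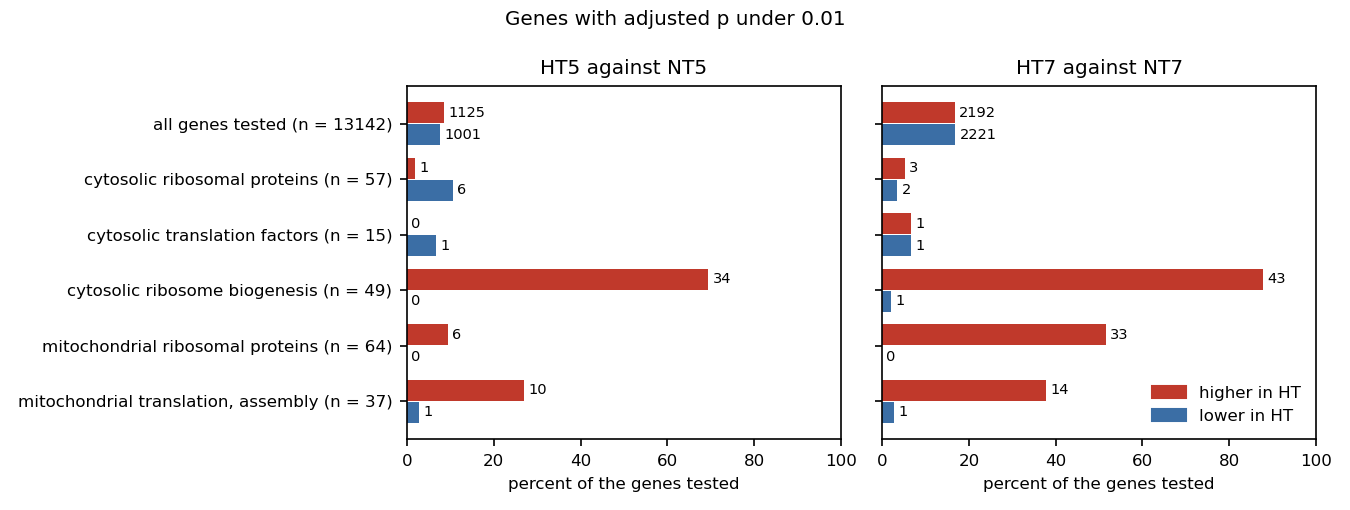
Share of genes with an adjusted p-value under 0.01 (horizontal axes, percent, with the number of genes at each bar) that were higher (red) or lower (blue) in hyperoxia on day 5 (left) and day 7 (right), for all genes tested and for 5 lists. On day 7 the bars reach 43 of 49 ribosome biogenesis genes and 33 of 64 mitochondrial ribosomal proteins, but 3 of 57 cytosolic ribosomal proteins.

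Markers of lung cell types also differed in the same comparisons. On day 3, sums were higher in HT3 without overlap for alveolar type 2 (24701.4 to 27940.5 against 17495.6 to 20345.5 CPM) and neutrophil markers (959 to 1284 against 274 to 626 CPM). They were lower without overlap for markers of dividing cells (170 to 186 against 221 to 309 CPM) and fibroblasts (6940 to 8417 against 9378 to 11576 CPM). The same held for ciliated and lymphocyte markers, and the other lists overlapped on day 3. On day 5, alveolar type 1 markers summed to 2219 to 3795 CPM in HT5 and 5595 to 6814 CPM in NT5, endothelial markers to 1121 to 1167 against 1812 to 2248 CPM, macrophage markers to 1602 to 1638 against 826 to 1452 CPM, and markers of dividing cells to 252 to 458 against 650.2 to 751 CPM, none overlapping. The sums of ciliated, fibroblast, erythroid and lymphocyte markers were also lower in HT5 without overlap, and those of the other lists overlapped. On day 7 the lists stood as follows. The 5 of 6 alveolar type 1 markers tested summed to 1937 to 2539 CPM in HT7 and 6464 to 7245 CPM in NT7, and 0 were higher and 3 lower on day 7. The 5 of 6 endothelial markers tested summed to 818 to 1193 CPM in HT7 and 2009 to 2344 CPM in NT7, with 0 higher and 3 lower. The 6 macrophage markers summed to 1662 to 2299 CPM in HT7 and 1077 to 1269 CPM in NT7, with CD68 higher and MARCO lower. Each marker of these lists had more than 3 counts in some sample of every group. Their part in the ribosomal protein results was not tested.

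Of the other marker lists on day 7, fibroblasts had 1 gene higher and 1 lower of 5, alveolar type 2 cells 0 and 1 of 7, ciliated cells 0 and 1 of 6, lymphocytes 0 and 3 of 6 and erythroid cells 0 and 1 of 3. The lists for neutrophils (5 genes tested), dividing cells (10), heart muscle (3) and skeletal muscle (5) had none called in either direction. With 16.7% of all genes higher and 16.9% lower on day 7, 1 call in a list of 5 to 7 genes is near the background. The marker sums of ciliated cells were still lower in HT7 without overlap, at 119 to 168 against 229 to 281 CPM in NT7. So were those of lymphocytes (9.84 to 11.9 against 18.2 to 27.5 CPM) and erythroid cells (47.3 to 67.1 against 118 to 202 CPM). The sums of the remaining lists in this paragraph overlapped on day 7. The HT5 samples also differed from each other in markers. Skeletal muscle markers summed to 294 CPM in replicate 1 and 3.84 CPM in replicate 2, and alveolar type 2 markers to 33062 and 12621 CPM. Whether this bears on the gap between their ribosomal protein levels was not tested.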

How the data were processed

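The authors sequenced stranded poly(A) libraries of lung RNA and deposited raw read counts per locus, without normalization. Per the labels' processing notes, reads were checked with FastQC and mapped with STAR 2.7.10a to OryCun2.0. The counting program is not given in the sources used here. A locus with several annotated genes is listed once per gene with the same counts, which touches 9 members. Of 172 rows that fit the name rule, 51 further rows of 20 symbols were left out.

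For the tests, edgeR 4.0.16 (R 4.3.3) was run on the counts of all 17 samples, with filterByExpr, TMM factors, 1 mean for each of 6 groups, the quasi-likelihood test and Benjamini-Hochberg adjustment over 13142 rows. The step was tested on simulated data. CPM used the TMM factors, and class levels log2(CPM + 0.01). DESeq2 1.42.0 was an alternative, as were other factors, filters, thresholds, sample sets, row choices, a removed trend on gene span, the replicate block and leaving out each sample. Figures used matplotlib 3.10.9.

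The members and gene lists were chosen with earlier results of these data known. Named were, per day and class, the 3 largest rises and falls called with groups that did not overlap, and members fixed for their roles, of which 28 of 38 had a row. Genes named outside this rule in the comparison of days 7 and 3 are all those called there, and other such genes, the further falls of day 5 among them, were chosen after their values were seen. No list was given a test of its own, and groups were compared per gene. Labels do not say what the samples of a group share beyond separate titles, so p-values measure the spread between these samples.

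Deviations of samples with the same replicate number from their group means correlated by 0.18, 0.13 and 0.24 on day 3, by 0.27 and 0.14 on day 5 and by 0.21, 0.14 and 0.06 on day 7. All pairs passed 0.1 on days 3 and 5, of which only day 3 has 3 pairs. No member was called on day 3 with or without the block. Promoter and protein sequences were not analysed here. Some members are counted in their class but not reported here by name.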

Additional observations from a re-analysis of the deposited data

Results flagged for a closer look

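The effect of hyperoxia differed between day 7 and day 3, by a test of that difference itself (edgeR quasi-likelihood test, adjusted p under 0.01), for 6 mitochondrial members and 1 cytosolic member, all with the higher effect on day 7. That is 9.38% of the mitochondrial and 1.75% of the cytosolic members, where 2.59% of all genes were higher and 4.68% lower. The cytosolic share is below that of all genes. On the log2 scale the difference was 1.47 for MRPL11, 1.09 for MRPL13, 0.74 for MRPL20, 0.56 for MRPL24, 0.70 for MRPS23, 1.23 for MRPS30 and 1.16 for RPL7L1. These calls rest on few samples. Leaving out 1 sample at a time gave 0 to 14 mitochondrial and 0 to 1 cytosolic rises, and the replicate block gave 2 of each class.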

How the results depend on the processing

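No class median of log2FC and no call of a named member changed direction under any alternative run. The median difference between classes changed sign between days 5 and 7 without 1 sample, ranging from -0.46 to 0.27 against -0.07, while the cytosolic median of that comparison ranged from 0.17 to 0.63. It also turned to -0.02 in NT7 against NT3 without NT3 replicate 2, from 0.03. On day 7, mitochondrial rises numbered 36 with DESeq2, 30 with the replicate block and 23 with only the samples of that day, against 33, but 0 beyond a log2FC of 2. At an adjusted p under 0.05, day 5 gave 22 cytosolic falls and 20 mitochondrial rises, and day 7 gave 6 cytosolic rises and 5 falls. The difference of days 7 and 3 gave 2 cytosolic and 17 mitochondrial rises and 1 fall in each class, and HT7 against HT3 gave 6 cytosolic falls. Of the 13142 genes tested, 2093 were higher and 2022 lower on day 5 at that threshold, and 3114 and 3113 on day 7. In the difference of days 7 and 3 these numbers were 1251 and 1442, and for HT7 against HT3 they were 2935 and 2886. Beyond a log2FC of 2, the calls numbered 0 in both classes on day 5, on day 7 and in the difference of days 7 and 3, and for HT7 against HT3 0 cytosolic calls and 0 mitochondrial rises.

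With DESeq2 there were 15 cytosolic falls and 14 mitochondrial rises on day 5, 13 mitochondrial rises in the difference of days 7 and 3, and 4 cytosolic and 0 mitochondrial falls in HT7 against HT3. In a model of only the samples of the day, day 5 gave 0 calls in either class and day 7 gave 1 cytosolic rise and 1 fall. With the trend on gene span removed there were 4 cytosolic falls in HT7 against HT3. With the replicate number as a block, whose pairing is not stated in the labels for any day, day 5 kept a count of 1 cytosolic fall and 2 mitochondrial rises, day 7 of 1 cytosolic fall, and the difference of days 7 and 3 of 2 cytosolic and 2 mitochondrial rises.

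Without 1 sample at a time, day 5 gave 0 to 1 cytosolic rises, 0 to 18 cytosolic falls, 0 to 12 mitochondrial rises and 0 to 1 mitochondrial falls. Day 7 gave 1 to 4 cytosolic rises, 0 to 3 cytosolic falls and 22 to 36 mitochondrial rises. The difference of days 7 and 3 gave 0 to 1 cytosolic and 0 to 14 mitochondrial rises. HT7 against HT3 gave 1 to 3 cytosolic rises, 1 to 3 cytosolic falls, 20 to 42 mitochondrial rises and 0 to 1 mitochondrial falls. Where HT5 was left with 1 sample, its spread was taken to be that of the other groups. Rows of low count, MRPS17 and RPL22L1 among them, limit what can be said of those members.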
